A study of Mus musculus with 6 samples.

Results

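The genes described here are 9 genes of B cell development, from progenitor to mature B cell: Rag1, Dntt, Vpreb1, Igll1, Vpreb3, Pax5, Cd79a, Cd79b and Ms4a1. They were chosen by symbol through their Ensembl gene identifiers, and all 9 were found among the 48709 mouse gene rows of the count table. RNA was measured by RNA-seq in whole cochleae of 6 mice, a model of the human deafness DFNB39. Wild-type mice (Hgf+/+, 3 libraries) were littermates of knock-in mice (Hgfdel10Neo/del10Neo, 3 libraries), which were homozygous for an Hgf allele that lacks 10 bp of intron 5 and, by its name, carries Neo. Both groups were 5 to 27 weeks old. No source used here gives the age or sex of single mice, or how much bone came with each cochlea.

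B cells arise in bone marrow, and the temporal bone around the inner ear holds marrow. A progenitor first joins V, D and J segments of its immunoglobulin heavy chain genes, cut by the RAG recombinase and diversified by terminal transferase (Dntt). The new heavy chain is tested in a pre-B cell receptor, in which Vpreb1 and Igll1 stand in for the light chain and Cd79a and Cd79b carry the signal. Pax5 fixes the cell in the B lineage, and Ms4a1, which encodes CD20, appears as the cell leaves the precursor stages.

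RefSeq promoter windows, from 250 bases before to 50 bases after the annotated start (build GRCm38.p6), were found for 7 of the 9 genes. Windows of 4 genes, a recombinase, both surrogate light chain genes and a receptor chain, are printed because they hold the E-box CAGGTG, a motif bound by E proteins such as the product of Tcf3. The pattern over the 6 libraries described further on was shared by members whose windows lack it. Capitals mark every match, on either strand, to the motifs searched.
Rag1, chr2:101649483-101649782, reverse strand: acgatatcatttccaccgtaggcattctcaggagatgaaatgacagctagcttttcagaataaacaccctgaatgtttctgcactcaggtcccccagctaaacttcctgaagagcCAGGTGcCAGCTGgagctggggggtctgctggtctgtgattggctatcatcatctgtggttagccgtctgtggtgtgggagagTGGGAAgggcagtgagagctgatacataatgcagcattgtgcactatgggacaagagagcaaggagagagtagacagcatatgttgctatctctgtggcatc
Igll1, chr16:16863936-16864235, reverse strand: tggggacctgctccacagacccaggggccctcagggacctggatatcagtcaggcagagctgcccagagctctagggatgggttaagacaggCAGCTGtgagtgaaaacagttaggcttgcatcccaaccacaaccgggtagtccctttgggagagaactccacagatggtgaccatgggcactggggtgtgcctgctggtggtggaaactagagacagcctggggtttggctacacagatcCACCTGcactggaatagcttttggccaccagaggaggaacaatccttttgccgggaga
Vpreb1, chr16:16869206-16869505, reverse strand: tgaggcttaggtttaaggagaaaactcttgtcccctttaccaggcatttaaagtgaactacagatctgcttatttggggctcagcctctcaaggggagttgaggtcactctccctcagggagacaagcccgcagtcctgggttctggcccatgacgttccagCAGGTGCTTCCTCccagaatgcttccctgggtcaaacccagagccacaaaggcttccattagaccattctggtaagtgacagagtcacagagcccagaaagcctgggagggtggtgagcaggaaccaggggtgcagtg
Cd79a, chr7:24897247-24897546, forward strand: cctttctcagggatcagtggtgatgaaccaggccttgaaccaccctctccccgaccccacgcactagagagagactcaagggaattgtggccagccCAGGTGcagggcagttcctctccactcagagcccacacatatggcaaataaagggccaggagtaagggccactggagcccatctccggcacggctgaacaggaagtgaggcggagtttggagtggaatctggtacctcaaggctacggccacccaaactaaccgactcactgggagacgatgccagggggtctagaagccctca
The motif CAGGTG occurred in these 4 windows, 4 of the 7 searched, and in 20.2% of all 32851 promoter windows of that length. CAGCTG, a second E-box, occurred in the windows of Rag1 and Igll1 and in 16.3% of all windows. The window of Rag1 also held TGGGAA, an Ikaros motif (25.6% of all windows), and that of Vpreb1 held GAGGAAG, a PU.1 motif (13.6% of all windows), which is next to but does not overlap its E-box. The octamer ATGCAAAT was found in the window of Vpreb3 alone among the 7, and in 1.74% of all windows. The palindromic EBF1 motif was in 0 of the 7 and in 0.904% of all windows. Matches describe letters only, and binding was not measured.

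Libraries held 24005234 to 42312291 gene counts. Hgf was lower in every knock-in library (9.24 to 10.53 CPM, counts scaled to the size of each library with TMM factors) than in any wild-type library (15.2 to 16.2 CPM), with an edgeR adjusted p of 0.246. Neo counts were 71 and 199 in knock-in replicates 1 and 2 but 5 in the library labelled knock-in replicate 3, as low as in wild-type (5, 8 and 10), while Dct, at 23.6 CPM there, was at the level of the other knock-in libraries. Xist, which coats an inactive X chromosome, had 25380 counts in wild-type replicate 2 and 17489 in knock-in replicate 3, against 10 to 30 counts in each of the other 4 libraries. Ddx3y, a gene of the Y chromosome, was at 0.0337 and 1.13 CPM in those 2 libraries and at 76.8 to 88.9 CPM in the other 4. All 14 genes of a cochlear marker list were detected in every library, and their summed level was 3246 to 3702 CPM in wild-type and 3368 to 3951 CPM in knock-in.

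None of the 9 genes passed the test for a difference between the genotypes, but all 9 varied more between mice of 1 group than most genes did. All 9 were tested, and edgeR's quasi-likelihood test with Benjamini-Hochberg adjustment over 20733 genes called 0 of them (0.0338% of all genes tested were called). DESeq2 and limma-voom also called 0 of the 9, and 0.121% and 0.0386% of all genes. At an unadjusted p under 0.05, edgeR, DESeq2 and limma-voom each counted 0 of the 9, where edgeR counted 4.5% of all genes. The groups overlapped for all 9, and did not overlap for 8.72% of all genes. The median log2 fold change of the 9 was -0.27, against 0.0 over all genes tested, and 8 of the 9 were negative, where 49.8% of all genes were. Other lists leaned the same way, with 11 of 11 erythroid, 8 of 8 macrophage and 7 of 10 neutrophil and myeloid precursor genes negative. T cell and thymocyte genes were mostly positive, at 7 of 9 tested, and so were osteoblast genes, at 6 of 7. In whole tissue, fewer B lineage cells and less RNA per cell cannot be told apart.

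**Figure D1:**
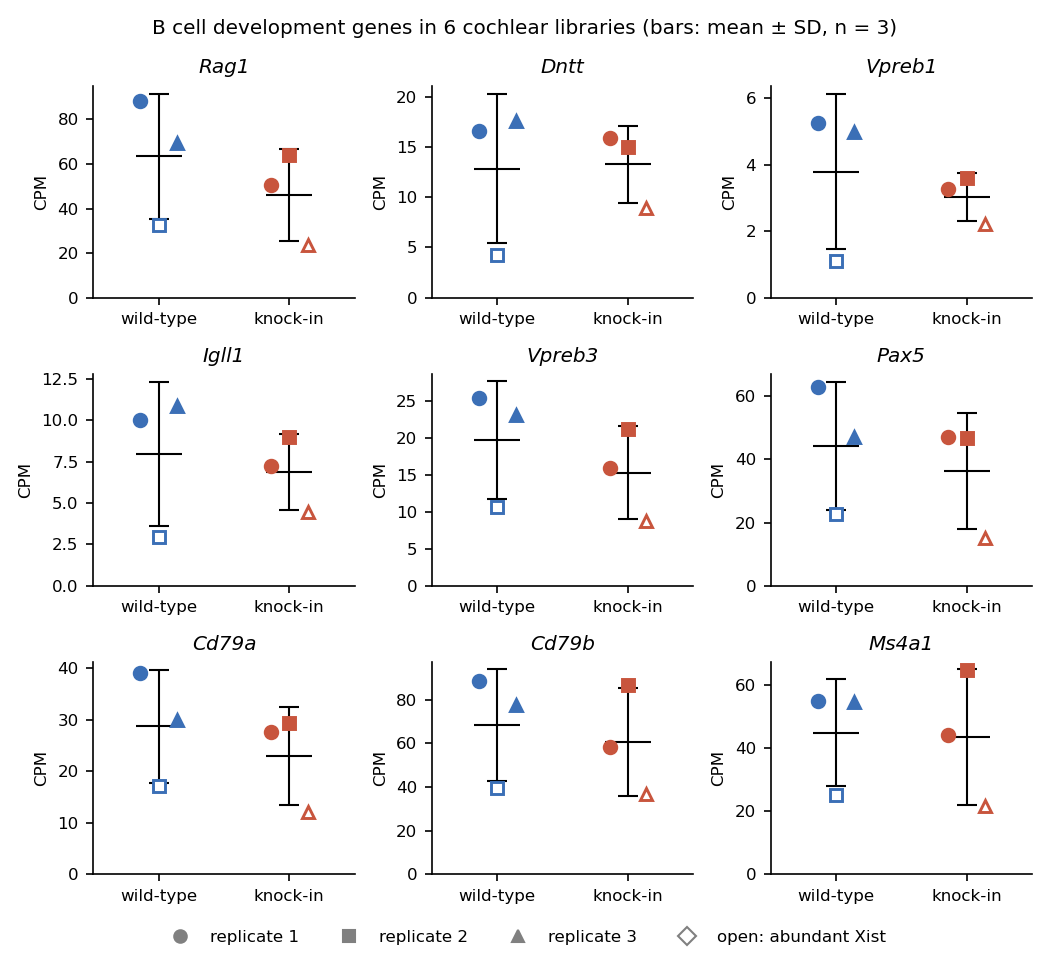
CPM (TMM-scaled counts, linear axes from 0) of the 9 genes in 3 wild-type (blue) and 3 knock-in (red) libraries; symbols give the replicate, open symbols the libraries with abundant Xist, and black bars the mean ± SD (n = 3). In all 9 panels the open symbols of both groups are the lowest points, and the groups overlap.

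Per length of annotated exon, Cd79b had the highest level of the 9 genes in 6 of 6 libraries, with a mean of 45.2 CPM per kilobase (range 25.8 to 61.9). Vpreb3 (20.4) and Cd79a (17.7) followed, then Rag1 (8.28), Ms4a1 (7.13), Dntt (5.70), Pax5 (4.56), Igll1 (3.43) and Vpreb1 (2.84 CPM per kilobase, range 0.926 to 4.39). Neighbours in this order overlapped in their ranges over the 6 libraries. Lengths are unions of all annotated exons, so a gene with long or rare exons is placed lower.

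The genes of V(D)J recombination mark the first steps. Rag1, the catalytic chain of the RAG recombinase (chromosome 2, 101638282 to 101649501, reverse strand, GRCm38), was at 88.2, 32.7 and 69.2 CPM in wild-type replicates 1, 2 and 3 and at 50.4, 64.05 and 23.5 CPM in knock-in replicates 1, 2 and 3. Its highest value was thus a wild-type and its lowest a knock-in library, but wild-type replicate 2 lay below both knock-in replicates 1 and 2. The group levels were 63.4 ± 28.2 and 45.99 ± 20.6 CPM (SD, n = 3 per group), and the log2 fold change was -0.46 (SE 0.39, 95% interval -1.33 to 0.41), the most negative of the 9 (edgeR adjusted p = 0.966). Dntt, the terminal transferase that adds bases to the joined segments (chromosome 19, 41029275 to 41059525, forward strand), was at 16.6, 4.27 and 17.6 CPM in wild-type and 15.9, 15.05 and 8.89 CPM in knock-in replicates 1 to 3. Wild-type replicate 2 held the lowest level, and the other 2 wild-type libraries and knock-in replicates 1 and 2 lay close together. Its log2 fold change was 0.05 (95% interval -0.91 to 1.01; edgeR adjusted p = 0.995).

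Of the list of recombination and end joining genes, 9 were not among the 9 described genes. All were tested, 0 were called, and 5 were positive and 4 negative, with a median log2 fold change of 0.0. Rag2, the partner chain of the recombinase, was at 5.71, 2.02 and 5.35 CPM in wild-type and 3.68, 4.37 and 2.21 CPM in knock-in, with the same 2 libraries at the bottom as for Rag1, in the reverse order, and at a lower level. The end joining factors act in all cells, and those with the smallest p varied less between libraries. Nhej1 had a log2 fold change of 0.30, Xrcc4 0.28 and Dclre1c, the nuclease that opens the hairpin ends, 0.14, and none passed the test.

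The surrogate light chain genes were the least abundant members. Vpreb1, its variable-like part (chromosome 16, 16868403 to 16870843, reverse strand), was at 5.27, 1.11 and 4.99 CPM in wild-type and 3.26, 3.58 and 2.21 CPM in knock-in. The wild-type library at the bottom rested on 33 counts (95% Poisson interval 0.764 to 1.56 CPM, counting error only), which did not reach the interval of knock-in replicate 3 (1.65 to 2.91 CPM). Igll1, the constant-like part of the surrogate chain and a neighbour of Vpreb1 on the same strand (16860671 to 16863985), was at 10.05, 2.96 and 10.9 CPM in wild-type and 7.21, 9.01 and 4.46 CPM in knock-in. Both genes had their lowest level in wild-type replicate 2 and their next lowest in knock-in replicate 3. Log2 fold changes were -0.32 for Vpreb1 (95% interval -1.35 to 0.71) and -0.21 for Igll1 (-1.14 to 0.73), with edgeR adjusted p of 0.976 and 0.984.

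Vpreb1 counts are uncertain, because 8.55% of the 93-base windows of its transcripts also occur in a transcript of Top3b or Vpreb2. Top3b overlaps it on the opposite strand by 108 exon bases, and no source used here gives the strand setting of the counting. Vpreb2, a near copy that shares 15.6% of its windows with Vpreb1, was at 0.202 to 0.523 CPM in wild-type and 0.217 to 0.483 CPM in knock-in. Its counts were 5 to 17 per library. Vpreb3, a relative of Vpreb1 that acts inside precursor B cells (chromosome 10, 75943057 to 75949657, forward strand), shared no window with another gene. It was at 25.4, 10.7 and 23.2 CPM in wild-type and 15.97, 21.2 and 8.71 CPM in knock-in. Here knock-in replicate 3 was lowest, with wild-type replicate 2 just above, and the log2 fold change was -0.36 (95% interval -1.15 to 0.42; edgeR adjusted p = 0.971).

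Pax5, the transcription factor that commits cells to the B lineage (chromosome 4, 44524757 to 44710487, reverse strand), was at 62.9, 22.6 and 47.1 CPM in wild-type and 47.2, 46.9 and 15.2 CPM in knock-in. Knock-in replicates 1 and 2 matched wild-type replicate 3, and knock-in replicate 3 had the lowest value. The log2 fold change was -0.27 (95% interval -1.23 to 0.69; edgeR adjusted p = 0.98). Of its 93-base windows, 5.82% also occur in the antisense transcripts Gm12462 and 5730488B01Rik, so part of its counts may not be separable. Of 15 other transcription factors of the lineage, 0 were called, and 12 were negative and 3 positive, with a median log2 fold change of -0.08. Ikzf1, the Ikaros gene, had -0.20, its relative Ikzf3 -0.28, and Irf4, which also acts in plasma cells, 0.15. Ebf1, chosen after its values were seen, is required at the start of the lineage and is also expressed outside it. It was at 105.4 to 111.7 CPM in wild-type and 100.9 to 112.0 CPM in knock-in, a range far narrower than that of Pax5.

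Cd79a, the alpha signalling chain (chromosome 7, 24897381 to 24902197, forward strand), was at 39.03, 17.1 and 30 CPM in wild-type and 27.5, 29.2 and 12.01 CPM in knock-in. Cd79b, the beta chain (chromosome 11, 106311341 to 106314762, reverse strand), was at 88.6, 39.6 and 77.6 CPM in wild-type and 58.5, 86.7 and 36.97 CPM in knock-in. Both chains were lowest in knock-in replicate 3 and highest in wild-type replicate 1. Log2 fold changes were -0.32 for Cd79a (95% interval -1.09 to 0.46) and -0.17 for Cd79b (-0.91 to 0.56), with edgeR adjusted p of 0.972 and 0.983. Ms4a1, the CD20 gene (chromosome 19, 11249675 to 11266241, reverse strand), was at 54.7, 25.1 and 54.5 CPM in wild-type and 44.1, 64.5 and 21.6 CPM in knock-in. It was the 1 gene of the 9 with its highest level in a knock-in library, and its groups had nearly the same mean, 44.8 ± 17.0 and 43.4 ± 21.4 CPM (SD, n = 3 per group). Its log2 fold change was -0.04 (95% interval -0.89 to 0.80; edgeR adjusted p = 0.995).

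Of 11 other genes of pre-B and B cell receptor signalling, 0 were called and 10 were negative, with a median log2 fold change of -0.12. Cd72, a B cell coreceptor, had -0.35, the kinase gene Blk -0.28 and the kinase gene Syk -0.19. Of 14 other mature B cell genes, 0 were called and 12 were negative, with a median of -0.15. Igkc, the kappa light chain constant region, had a log2 fold change of -0.72 (95% interval -1.36 to -0.07; edgeR adjusted p = 0.966). Its values were 498.0, 226.2 and 208.9 CPM in wild-type and 174.6, 189.6 and 203.7 CPM in knock-in, so the groups did not overlap and wild-type replicate 1 stood far above the rest. Over all 68 other B lineage genes listed, 67 were tested and edgeR called 0. Igkc alone had an unadjusted edgeR p under 0.05. At that level DESeq2 counted 1, which was the niche ligand gene Cxcl12 and not Igkc, and limma-voom counted 0. Of all 20733 genes tested, DESeq2 counted 748 and limma-voom 878 at that level. DESeq2 and limma-voom both called 0 of the other B lineage genes.

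**Figure D2:**
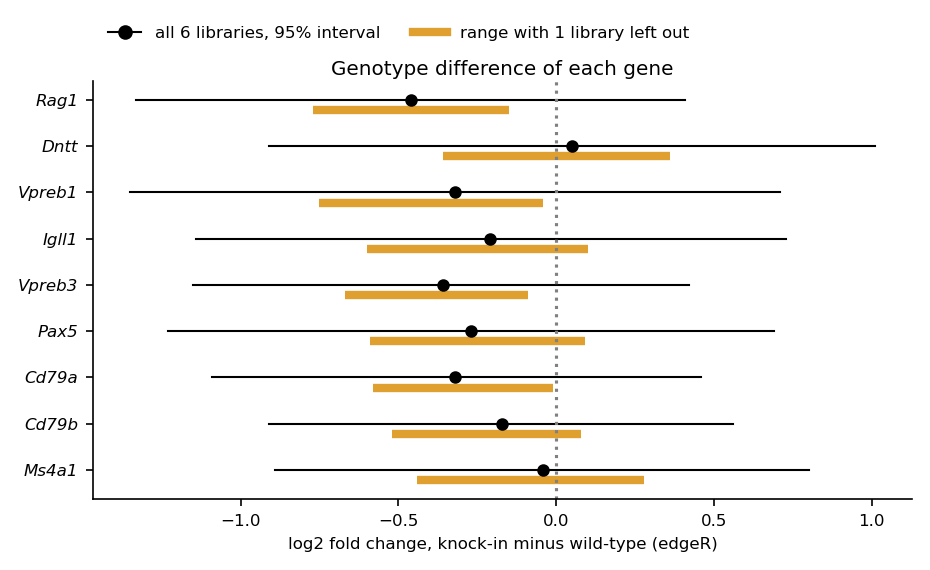
Log2 fold change of each gene, knock-in minus wild-type, in edgeR (black points) with its 95% interval (black lines) and, in orange, the range of the fold change when each of the 6 libraries was left out in turn. Every interval spans 0, and the orange ranges of Dntt, Igll1, Pax5, Cd79b and Ms4a1 reach both sides of 0.

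The intervals leave room for sizeable differences. For Cd79b, the narrowest, the fold of knock-in over wild-type lay between 0.532 and 1.47, and for Vpreb1, the widest, between 0.392 and 1.64. The direction of 5 genes changed when single libraries were left out. Leaving out wild-type replicate 1 moved Cd79b to 0.05 and Pax5 to 0.06. Ms4a1 became 0.12 without either wild-type replicate 1 or wild-type replicate 3, and Igll1 became 0.10 without the latter. Leaving out the library labelled knock-in replicate 3, whose Neo count was at the wild-type level, moved all 9 log2 fold changes upward, to -0.15 for Rag1 and Vpreb1, -0.09 for Vpreb3, -0.01 for Cd79a, 0.02 for Igll1, 0.08 for Cd79b, 0.09 for Pax5, 0.26 for Dntt and 0.28 for Ms4a1 (edgeR adjusted p = 0.9987 for each). All 9 moved downward without wild-type replicate 2, to between -0.77 for Rag1 and -0.33 for Ms4a1. Dntt became -0.36 without wild-type replicate 2, -0.09 without knock-in replicate 1 and -0.05 without knock-in replicate 2. Without wild-type replicate 2, Vpreb1, Igll1, Rag1 and Vpreb3 had an unadjusted edgeR p under 0.05, 4 of the 9 against 5.87% of all genes in that fit, and 0 were called. In the authors' deposited table, log2 fold changes of the 9 genes were between -0.47 (Rag1) and 0.04 (Dntt), each with an adjusted p of 0.9997.

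The spread between mice was the larger feature of these genes. The highest library exceeded the lowest 2.4-fold for Cd79b to 4.74-fold for Vpreb1, with a median of 3.68-fold, against a median of 1.45-fold over all genes tested. The SD of log2 CPM within a group was between 0.62 and 0.91, with a median of 0.75 against 0.19 over all genes tested. Between 95.8% (Cd79b) and 98.9% (Vpreb1) of tested genes had a smaller within-group SD than the member.

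The 9 genes shared much of their order of libraries. The 2 libraries with abundant Xist (wild-type replicate 2 and the library labelled knock-in replicate 3) were below the other 4 libraries for 9 of 9 genes, an arrangement found for 11.9% of all genes tested. Knock-in replicate 3 was the lowest for 6 genes and wild-type replicate 2 for Dntt, Vpreb1 and Igll1. Wild-type replicate 1 was the highest for 6 genes, wild-type replicate 3 for Dntt and Igll1 and knock-in replicate 2 for Ms4a1. Averaged over the 9 genes, log2 levels relative to each gene's own mean were 0.64, -0.86 and 0.49 in wild-type replicates 1, 2 and 3 and 0.14, 0.40 and -0.81 in knock-in replicates 1, 2 and 3. The pattern was noticed in these data. With 1 such library per group, Xist, Ddx3y and other differences between those mice cannot be told apart, and their part in the result was not tested.

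**Figure D3:**
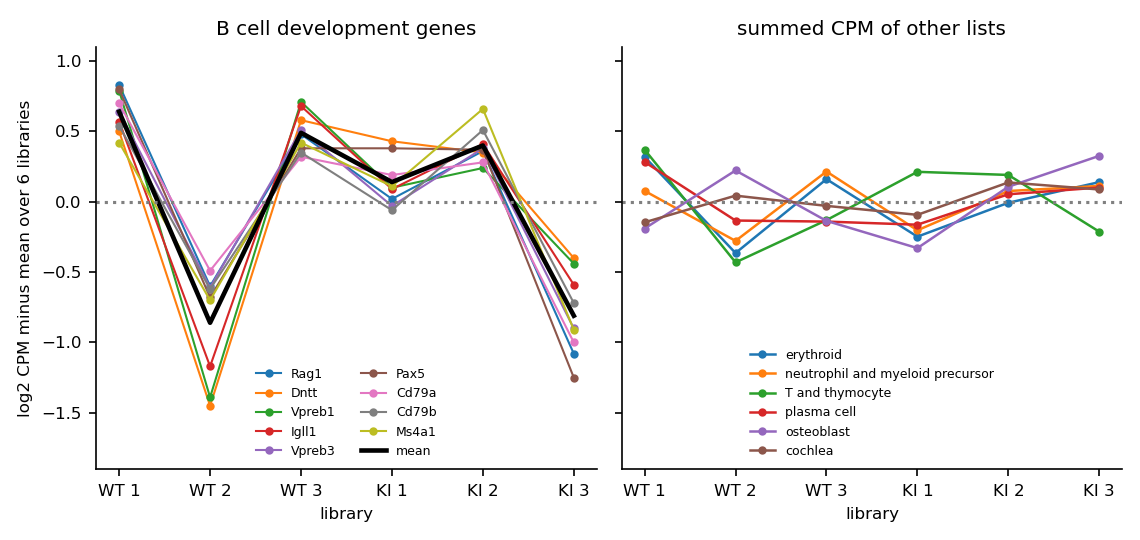
Left, log2 CPM of each of the 9 genes minus its own mean over the 6 libraries, with the mean of the 9 in black; right, the same for the summed CPM of 6 other gene lists; WT and KI are wild-type and knock-in replicates, and lines only join the values of 1 gene or list. The 9 genes dip together in WT 2 and KI 3, to -0.86 and -0.81 on average, while the sums of these 6 lists stay within a narrower band. The mature B cell list, not drawn, spread more, its summed CPM being 2.4-fold higher in the highest than in the lowest library.

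Among the 4 libraries without abundant Xist, both knock-in libraries lay below both wild-type libraries for 6 of the 9 genes (Rag1, Dntt, Vpreb1, Igll1, Vpreb3 and Cd79a), as they did for 17.1% of all genes tested. In edgeR on these 4 libraries alone, log2 fold changes were -0.58 for Vpreb1, -0.45 for Rag1 and -0.38 for Vpreb3, with unadjusted p of 0.0166, 0.0173 and 0.0412, and none passed the threshold (edgeR adjusted p = 0.945, 0.945 and 0.956). These were 3 of the 9 genes, and 5.17% of all genes were under 0.05 in that fit. The other 6 ranged from -0.37 (Igll1) to -0.00 (Ms4a1), and Dntt turned to -0.15. With Xist as a second term over all 6 libraries, edgeR gave -0.42 for Rag1, -0.31 for Cd79a and -0.32 for Vpreb3 (unadjusted p = 0.00417, 0.0264 and 0.0241; adjusted p = 0.614, 0.774 and 0.769), again 3 of the 9, where 6.14% of all genes were under 0.05. Vpreb1 was only at -0.13 in this fit (unadjusted p = 0.651; edgeR adjusted p = 0.957), Igll1 at -0.06, Ms4a1 at -0.04, Cd79b at -0.13, Pax5 at -0.28 and Dntt at 0.24. The members are not independent of each other, since they share the same cells. Both fits were added after the members' shared order of libraries was seen, and both set aside the spread tied to that order. The shares over all genes are therefore not a like comparison for the members. Residual degrees of freedom were 3 with the Xist term and 2 in the 4 libraries. Between the 2 libraries with abundant Xist, 1 per group, knock-in replicate 3 was below wild-type replicate 2 for 6 genes and above it for Dntt, Vpreb1 and Igll1.

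Other genes of the lineage divided by whether they shared this order of libraries. The 2 libraries with abundant Xist were below the other 4 for 11 of 11 other receptor signalling genes, 13 of 15 transcription factors and 12 of 14 other mature B cell genes. They were also below for 5 of 9 other recombination and end joining genes, among them end joining genes that act in all cells. The order was less complete among progenitor receptors, at 6 of 9, where Ly6d, an early B lineage surface marker, was at 39.1, 14.7 and 29.1 CPM in wild-type and 20.95, 30.2 and 15.2 CPM in knock-in. It held for 1 of 7 tested plasma cell genes. That gene was the marker Mzb1, at 12.3, 4.71 and 8.84 CPM in wild-type and 7.06, 7.85 and 4.12 CPM in knock-in. Jchain, the joining chain of secreted antibody, was at 144.7, 97.3 and 81.4 CPM in wild-type and 63.7, 88.8 and 92.3 CPM in knock-in, with knock-in replicate 3 the highest of its group. Irf4 was likewise highest in knock-in replicate 3, at 52.9 CPM. Of 5 niche ligand genes, which stromal cells supply to B progenitors, the order held for 1. Cxcl12, the ligand that retains progenitors in marrow, was at 487.5, 272.0 and 379.4 CPM in wild-type and 329.4, 304.7 and 214.4 CPM in knock-in (log2 fold change -0.42; edgeR adjusted p = 0.966), while Flt3l had 0.14 and Tnfsf13b, the BAFF gene, -0.23.

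**Figure D4:**
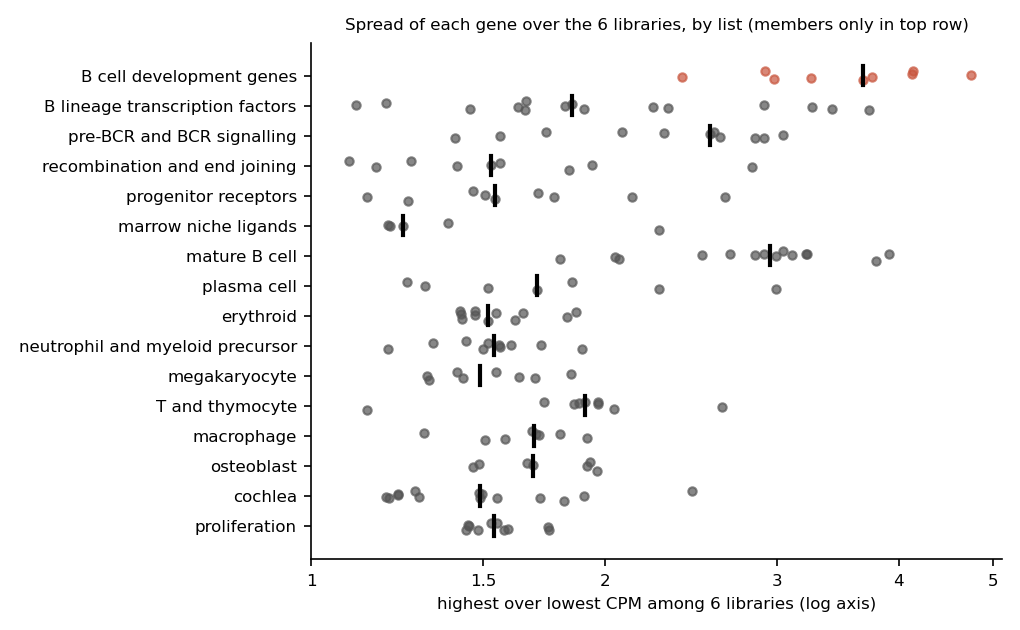
Highest over lowest CPM among the 6 libraries (log axis) for each gene of the 9 (red) and each tested gene of the other lists (grey, without the 9), with the list median as a black bar. The 9 genes and the mature B cell list spread the most, and erythroid, myeloid and megakaryocyte genes have medians of 1.49-fold to 1.54-fold.

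Genes of the other marrow lineages were present in every library and varied less. The summed level of 11 erythroid genes was 7234 to 11620 CPM in wild-type and 7842 to 10260 CPM in knock-in, and that of 10 neutrophil and myeloid precursor genes 9222 to 12980 CPM and 9717 to 12090 CPM. No gene of either list was without counts. The median of the highest over the lowest library was 1.52-fold for erythroid, 1.54-fold for neutrophil and myeloid precursor and 1.49-fold for megakaryocyte genes. The 2 libraries with abundant Xist were the lowest for 4 of 11 erythroid and 2 of 10 neutrophil and myeloid genes. In knock-in replicate 3 the summed erythroid and myeloid levels were 10260 and 12090 CPM, each the highest of its group, while the 9 B cell genes summed to 133.6 CPM, the lowest of all. Most of the erythroid sum was globin, with Hbb-bs alone at 7515 CPM there. Without the globins, the erythroid genes summed to 1345, 1354 and 1304 CPM in knock-in replicates 1, 2 and 3, so that knock-in replicate 3 was then the lowest of its group. Most of the myeloid sum in knock-in replicate 3 was S100a8 and S100a9, at 3313 and 4778 CPM. Of the myeloid precursor markers, Elane (118.1 CPM) and Mpo (300.1 CPM) were the lowest of the knock-in group there, and Prtn3 (85.2 CPM) was not. In wild-type replicate 2 the B cell, erythroid and myeloid sums were the lowest of their group, also without the globins (1192 CPM, against 1614 and 1777 CPM). The part of marrow content in the B cell result was not tested.

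Rag1 and Dntt are also genes of developing T cells. Ptcra, the pre-T cell receptor chain, had 0, 0 and 1 counts in the wild-type and 1, 2 and 0 counts in the knock-in libraries, and Cd3e was at 0.669 to 1.37 CPM in wild-type and 0.853 to 1.03 CPM in knock-in. The summed level of 10 T cell and thymocyte genes was 23.96 to 41.8 CPM in wild-type and 27.9 to 37.4 CPM in knock-in, and 0 of the 9 tested were called. Of 10 proliferation genes, 0 were called, with a median log2 fold change of -0.10, and the 2 libraries with abundant Xist were the lowest for 7.

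The ratios of Dntt, and of Vpreb1 with Igll1, to Ms4a1 also varied between mice, and not in parallel with the total. Dntt counts per 100 Ms4a1 counts were 30.4, 17.0 and 32.3 in wild-type and 35.98, 23.3 and 41.1 in knock-in. The lowest ratio, in wild-type replicate 2 (95% exact interval 13.99 to 20.6), and the highest, in knock-in replicate 3 (34.75 to 48.4), belonged to the 2 libraries with the least B cell RNA. Vpreb1 and Igll1 together gave 28.0, 16.2 and 29.1 counts per 100 Ms4a1 counts in wild-type and 23.7, 19.5 and 30.9 in knock-in, with the same libraries at both ends. These intervals cover counting error only, and read pairs without molecular identifiers are not independent molecules. The groups overlapped for both ratios. For Vpreb1 and Igll1, the upper end depended on the denominator. Per 100 counts of Cd79a and Cd79b together, they were highest in wild-type replicate 3 (14.8), with knock-in replicate 3 at 13.6. Wild-type replicate 2 stayed lowest (7.18), and the groups overlapped. Cd79b itself, per 100 Ms4a1 counts, was highest in knock-in replicate 3 (170.9). Dntt was not set against Cd79a or Cd79b. Rag1 and Vpreb3 did not follow the order of the Dntt ratio. Per 100 Ms4a1 counts, Rag1 was at 130.4 in wild-type replicate 2 and 108.6 in knock-in replicate 3. Vpreb3 was at 42.5 and 40.3 there, and neither gene had its lowest or highest ratio in these libraries.

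Relative to Ms4a1, Rag1 was lower in every knock-in than in any wild-type library. Rag1 counts per 100 Ms4a1 counts were 161.4, 130.4 and 127.0 in wild-type and 114.3, 99.3 and 108.6 in knock-in, or 139.6 ± 18.96 against 107.4 ± 7.57 (SD, n = 3 per group; two-sided exact permutation p = 0.1, the smallest that 3 against 3 allows). Vpreb3 per 100 Ms4a1 counts was 46.5, 42.5 and 42.55 in wild-type and 36.2, 32.9 and 40.3 in knock-in (exact permutation p = 0.1). Adjusted over the 12 ratios computed, all chosen after the values were seen, both had p = 0.48 by that exact permutation test. Of the 8 other members, 2 lay below in this way when set against Ms4a1, as did 0.154% of all genes tested. Most genes tested do not share the spread of Ms4a1, so that share is not a baseline for the members, which do. With Cd79b in place of Ms4a1 the groups overlapped for both genes. Rag1 then gave 99.5, 82.7 and 89.2 counts per 100 in wild-type and 86.2, 73.8 and 63.5 in knock-in (exact permutation p = 0.2). Of the 12 ratios, Dntt per 100 Rag1 counts differed most, at 19.1 ± 6.21 in wild-type and 30.9 ± 7.18 in knock-in (SD, n = 3 per group). Its groups overlapped (exact permutation p = 0.2, and 0.48 when adjusted over the 12 ratios).

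**Figure D5:**
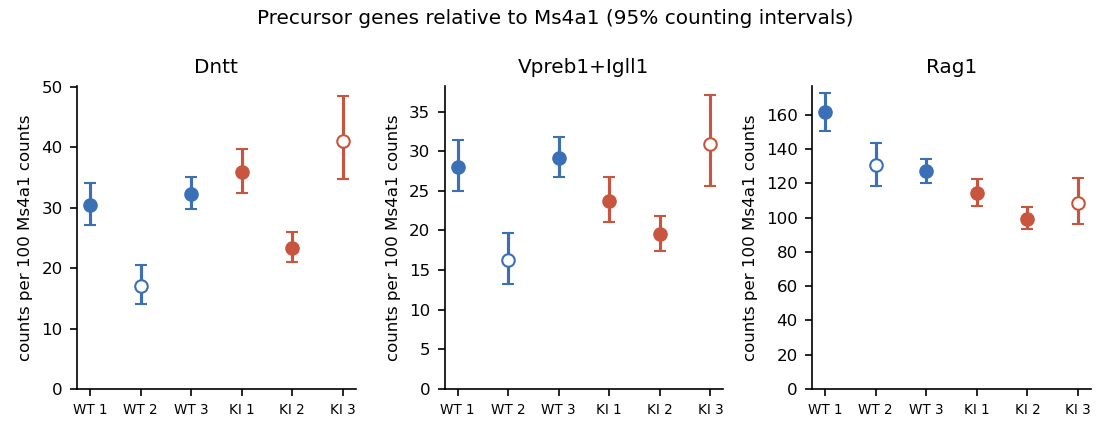
Counts of Dntt, of Vpreb1 and Igll1 together, and of Rag1 per 100 Ms4a1 counts in each library (WT wild-type, KI knock-in, numbers are replicates; linear axes from 0; open symbols, abundant Xist), with 95% exact counting intervals as bars. Dntt runs from 17.0 in WT 2 to 41.1 in KI 3, and the Rag1 ratio is at most 114.3 in the knock-in and at least 127.0 in the wild-type libraries.

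The genes whose levels over the 6 libraries were most like the mean of the 9 were sought among 14399 named protein-coding genes with a mean of at least 1 CPM. Likeness was the root-mean-square difference between log2 CPM profiles, each centred on its own mean, and had a median of 0.625 over these genes. The nearest was Rag2, at 0.09, the partner of Rag1. Slc12a3, a sodium chloride cotransporter known from the kidney, came next at 0.096, with 5.83, 2.12 and 4.61 CPM in wild-type and 4.08, 4.33 and 1.91 CPM in knock-in. Pou2af1, a B cell coactivator of octamer factors, stood at 0.103 and Blk at 0.113. Slamf6, a lymphocyte surface receptor, H2-Ob, a class II chaperone chain of B cells, and Tnfrsf13c, the BAFF receptor, stood at 0.158 to 0.163. The members themselves stood at 0.128 (Vpreb3) to 0.324 (Dntt), with Vpreb1 at 0.294. Each member is part of the mean it was set against, so these values are not comparable with those of other genes. Dntt, Vpreb1 and Pax5 (0.231) were the members farthest from the mean of the 9.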

How the data were processed

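RNA of 6 cochleae was sequenced as 93-base pairs after ribosomal depletion, per the labels' protocols. The authors mapped reads to GRCm38 (GENCODE M11) with STAR 2.5.2, per the submitters' processing notes and the series text, and deposited unnormalized counts per gene; no source used here names the counting program or its strand setting. Their deposited DESeq2 table gives a mean signal, a log2 fold change with its error, a test score and p-values per gene; the deposited transformed values were not used. Rows that name no mouse gene (24, at most 0.0045% of counts) were left out. Symbols and positions came from GENCODE M21, on the same build (48349 of 48709 identifiers matched).

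Counts were tested with edgeR 4.0.16 (R 4.3.3; filterByExpr, TMM, glmQLFit and glmQLFTest with default options, two-sided, group as the only term), with Benjamini-Hochberg adjustment over 20733 genes and a threshold of 0.05. Residual degrees of freedom were 4. Standard errors come from the log2 fold change and the F statistic, and 95% intervals use the moderated degrees of freedom. Log2 CPM used a prior count of 2. On simulated counts for this comparison (20526 genes tested), 45 of 50 genes raised 2-fold and 40 of 50 lowered to 0.5 were recovered, with 15 false calls among unchanged genes. The changed genes were drawn from the more abundant genes, most of which vary less within a group than the B cell development genes. This recovery therefore cannot be read as the rate at which such changes in the B cell development genes would be called. No pair of libraries was a repeat (chi-square per degree of freedom 20.95 to 48.97). Alternatives were RLE and upper-quartile scaling, limma-voom (limma 3.58.1), DESeq2 1.42.0, a stricter filter (1 CPM or more in 3 libraries) or none, and each library left out. An Xist covariate and a fit without the libraries with abundant Xist were added after seeing the data. Replicate numbers follow accession order and pair no samples.

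Members and lists were chosen with earlier results of these data known. Named genes are the members, up to 3 further genes per list with the smallest p, marker genes and the 8 nearest profiles, of which 1 is not reported here. Vpreb2 was added as the near copy of Vpreb1, and Ebf1, S100a8 and S100a9 after their values were seen. Of the listed symbols, 1 was not matched and is not analysed here.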

Additional observations from a re-analysis of the deposited data

How the results depend on the processing

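Of the 9 B cell development genes, 0 were called in any of the 14 refits, and likewise 0 of the other B lineage genes listed. The count of called genes over the whole table moved from 7 to 76 with no filter, 25 with DESeq2 and 11 with the Xist covariate, and lay between 3 and 21 when each library was left out; the cause was not tested. With 1 library left out, log2 fold changes ranged from -0.52 to 0.08 for Cd79b, -0.44 to 0.28 for Ms4a1, -0.60 to 0.10 for Igll1, -0.36 to 0.36 for Dntt and -0.59 to 0.09 for Pax5, crossing 0. They ranged from -0.58 to -0.01 for Cd79a, -0.75 to -0.04 for Vpreb1, -0.67 to -0.09 for Vpreb3 and -0.77 to -0.15 for Rag1. Dntt was at -0.15 in the 4 libraries without abundant Xist. Of 126 refitted member values, 113 kept their direction. Counts limit Vpreb1 most, at 33 to 209 per library. No paired analysis was possible because the labels give no replicate number shared by the groups.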
